A study of Solenopsis invicta with 3 samples.

Results

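Of the 15589 official gene entries in the expression reference for worker antennae of the fire ant *Solenopsis invicta*, 64 were set apart in the library of polygyne *SB/Sb* workers (P_Bb). They were chosen by their values. Expected counts were divided by the 75th percentile of each library, scaled to a geometric mean of 1, and 7897 official genes had a mean normalized count of at least 10. A gene entered the group if log2(normalized count + 1) in P_Bb lay at least 1 above, or at least 1 below, both other libraries and these differed by less than 1 from each other. In P_Bb, 23 of the 64 genes were higher and 41 were lower. The rule also named 6 identifiers to leave out, and 5 of them met the limits, 4 higher and 1 lower. With these included, 0.342% of the 7897 genes were higher in P_Bb and 0.532% were lower. Since these values chose the genes, the folds below describe the group and test nothing.

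There were 3 libraries. P_Bb came from polygyne *SB/Sb* workers, P_BB from polygyne *SB/SB* workers and M_BB from monogyne *SB/SB* workers. Each library was a pool of 4 antennal cDNA samples, each amplified on its own before mixing. The labels give the same 4 polygyne colonies for P_Bb and P_BB and other, monogyne colonies for M_BB, so social form and colony cannot be told apart, whereas P_Bb and P_BB differ by genotype within shared colonies. All workers were medium-sized foragers drawn to honey, and their ages were not given. Each class thus had 1 library and no replicate, and every ratio compares libraries, not conditions.

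The genotypes refer to the social supergene, a chromosomal region with little recombination that is inherited as a block in the variants *SB* and *Sb*. Monogyne colonies keep a single queen and their workers are all *SB/SB*, whereas polygyne colonies keep several queens and hold workers of both genotypes. Workers use odors sensed by the antennae to tell queens apart. Antennae carry the olfactory sensory neurons, in which odorant receptors respond to odors that binding proteins have carried through the fluid around them, and they also hold support cells, epidermis and other neurons. In whole antennae, fewer cells of a type and less RNA per cell cannot be told apart.

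The expected counts of the libraries summed to between 3351500 and 3948464. The 473 odorant receptor entries, which mark the olfactory neurons, held a share of the counts of 0.765% (P_Bb), 0.794% (P_BB) and 0.696% (M_BB). Between 415 and 428 of them reached a TPM of 1 in a library (TPM, transcript abundance scaled for length and depth), so the labelled tissue was borne out by its markers in each library. Whether the receptor share moved any of the 64 genes was not tested. The RefSeq gene table held 0 of the 64 identifiers. The study's table of predicted functions covers only genes that it called differentially expressed across replicates of the worker classes. Of the 64 genes, 2 appear in it. The others were not called by that test, so the table gives no function for them. The genes are therefore named by identifier, without positions.

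The genes higher in P_Bb were led by a few with wide gaps. SINVm1_gene_00322 had 96.0 normalized counts in P_Bb against 7.30 in P_BB and 3.59 in M_BB. The P_Bb value was 13.1 times that of P_BB, with a 95% Clopper-Pearson interval from 6.12 to 33.6, and 26.7 times that of M_BB, with an interval from 10.1 to 100.1. These intervals were computed from rounded counts of amplified reads without molecular identifiers and cover counting error only. The study's table gives this gene a placeholder name of the kind used for zebrafish sequences, which assigns no function. Among the 23 higher genes it had the widest gap of those with no entry found to share their reads.

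SINVm1_gene_00922 had 109 normalized counts in P_Bb against 17.7 in P_BB and 18.9 in M_BB. Both *SB/SB* libraries thus held nearly the same level. The ratio was 6.12 to P_BB (interval 3.65 to 10.9) and 5.76 to M_BB (3.58 to 9.71). SINVm1_gene_05106 had the highest mean of the 64 genes, 73.2 normalized counts, from 164 in P_Bb against 36.5 in P_BB and 18.9 in M_BB. Here the *SB/SB* libraries were further apart, with P_BB above M_BB by 0.92 on the log2 scale, just under the limit of 1. Its ratio was 4.50 to P_BB (3.10 to 6.69) and 8.70 to M_BB (5.50 to 14.5).

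SINVm1_gene_10443 had 55.5 normalized counts in P_Bb against 7.30 in P_BB and 13.5 in M_BB. SINVm1_gene_04193 had 52.1, 18.5 and 16.5 in the same order. The first was nearer to M_BB and the second to P_BB, and neither was among the genes the study called differentially expressed. SINVm1_gene_01388 was at a lower level, with 19.2, 6.26 and 5.39 normalized counts, and its intervals reached down to 1.17 against P_BB and 1.35 against M_BB.

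SINVm1_gene_13689, which the study's table lists as uncharacterized, had 54.3 normalized counts in P_Bb against 24.5 in P_BB and 23.5 in M_BB. The *SB/SB* libraries were nearly level, so the ratios of 2.22 (1.36 to 3.89) and 2.31 (1.42 to 3.89) were close to each other. The 2 genes with consecutive identifiers, SINVm1_gene_10304 and SINVm1_gene_10305, were both higher in P_Bb. SINVm1_gene_10304 had 26.7 normalized counts in P_Bb against 7.75 in P_BB and 7.89 in M_BB, and SINVm1_gene_10305 had 20.3, 9.39 and 6.29. The ratio of SINVm1_gene_10305 to P_BB was 2.16, with an interval from 0.930 to 5.41 that includes 1.

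Per length, the 23 higher genes ranged from 2.26 TPM (SINVm1_gene_05699) to 93.7 TPM (SINVm1_gene_05106) in P_Bb, with a median of 19.2. Their median was 5.05 TPM in P_BB and 5.85 TPM in M_BB. Over all 7897 official genes tested the medians were 31.6, 31.7 and 32.0 TPM, and 7 of the 23 higher genes exceeded this median in P_Bb. Together they held 959 counts in P_Bb against 256 in P_BB and 263 in M_BB. Of the 22 with counts in both *SB/SB* libraries, 15 were above M_BB in P_BB and 7 below. Among all genes tested P_BB was above M_BB in 3801 and below it in 4095, and the difference was not tested. The 10 higher genes not named here had 16.3 to 44.8 normalized counts in P_Bb, 6.26 to 17.7 in P_BB and 5.38 to 14.4 in M_BB.

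**Figure D1:**
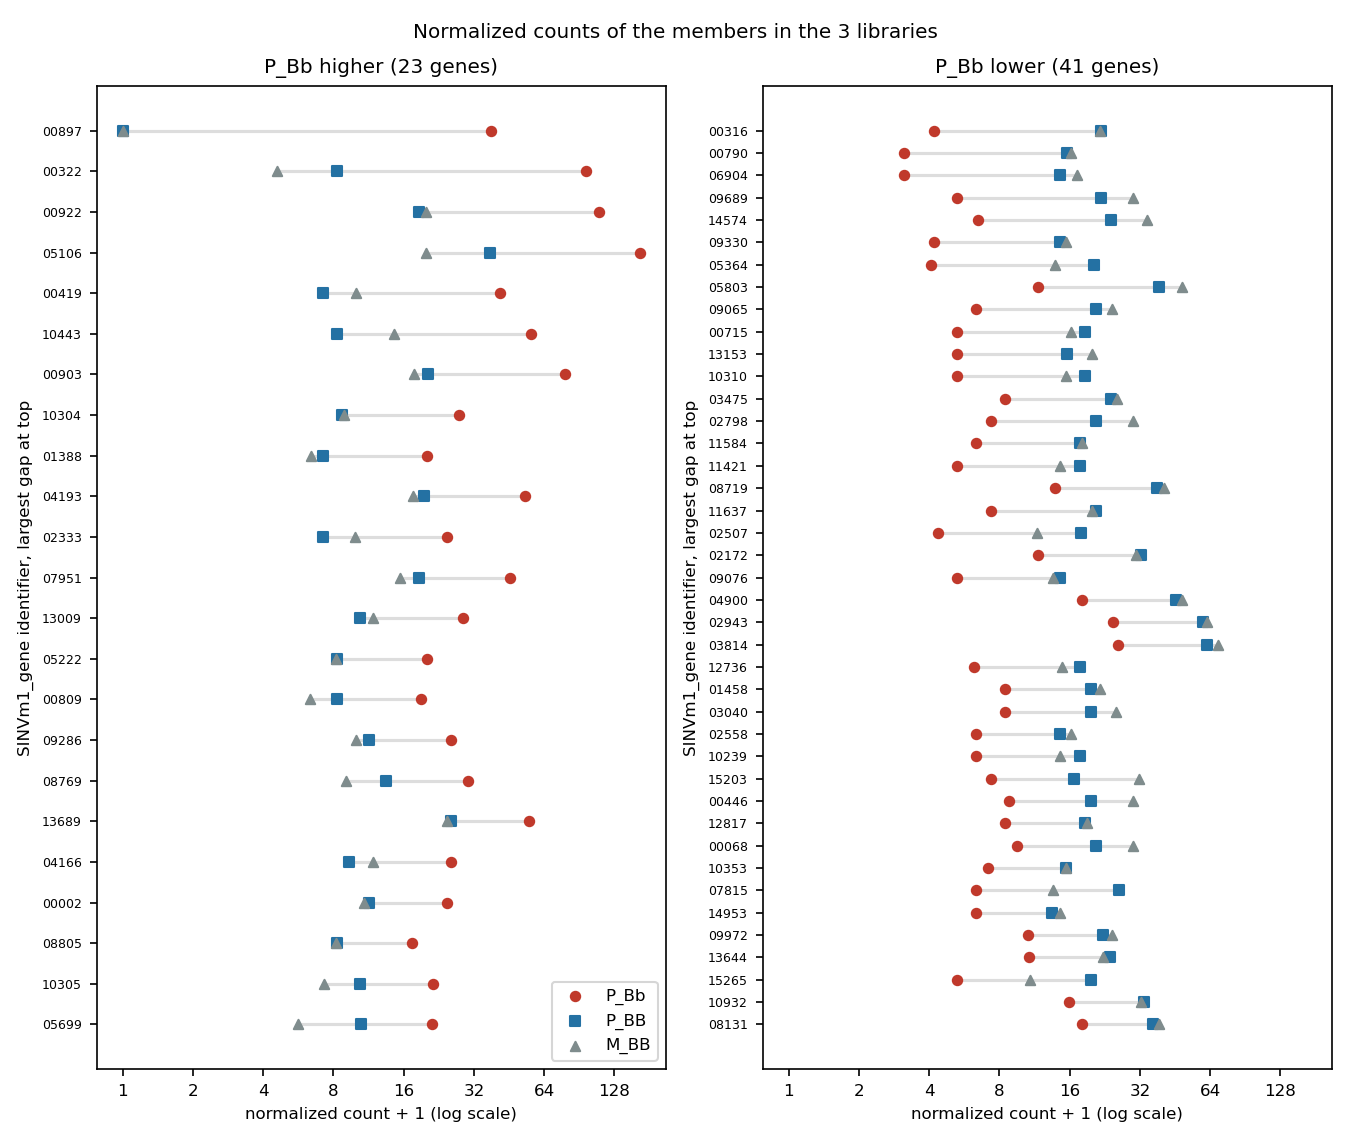
Normalized counts plus 1, on a log axis, of the 23 genes higher and the 41 genes lower in P_Bb. Points stand for the 3 libraries (P_Bb circles, P_BB squares, M_BB triangles) and grey lines join the lowest and highest; the rule sets P_Bb apart in every row, and SINVm1_gene_00897 is the only gene listed at 0 in P_BB and M_BB.

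The 41 lower genes were at low levels throughout. Their P_Bb counts ranged from 2 to 23.3, and 33 of the 41 had fewer than 10 counts in P_Bb. In normalized counts the median gene had 5.49 in P_Bb against 18.8 in P_BB and 20.6 in M_BB. Together the 41 genes held 293 of the counts in P_Bb, or 0.00873%, against 893 in P_BB and 1102 in M_BB. Each such gene therefore rests on a few reads in the library that is apart.

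SINVm1_gene_00316 had the widest gap among them, with 3.22 normalized counts in P_Bb against 20.9 in P_BB and 20.6 in M_BB. It was 6.48 times as high in P_BB as in P_Bb, with an interval from 1.93 to 34.3, and 6.38 times as high in M_BB (1.95 to 33.6). SINVm1_gene_00790 had 2.13 normalized counts in P_Bb against 14.6 in P_BB and 15.3 in M_BB. These genes were nearly level in the *SB/SB* libraries, and neither was among the genes the study called differentially expressed. SINVm1_gene_06904, with the longest coding sequence of the 64 (6534 bases), had 2.13, 13.6 and 16.2 normalized counts. Per length it was the lowest of the group, at 0.090 TPM in P_Bb against 0.58 in P_BB and 0.69 in M_BB.

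SINVm1_gene_00790 and SINVm1_gene_06904 had 2 counts each in P_Bb, and 6 of the 41 genes had at most 3 rounded counts there, among them SINVm1_gene_00316 and SINVm1_gene_09330. The intervals of such genes were wide: for SINVm1_gene_00790 the ratio of P_BB to P_Bb was 6.85 (1.57 to 62.1). SINVm1_gene_09330 had 3.20 normalized counts in P_Bb against 13.6 in P_BB and 14.4 in M_BB, and its ratio of P_BB to P_Bb was 4.24 (1.17 to 23.2). Such intervals leave the size of the fold wide.

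SINVm1_gene_09689 (4.27 normalized counts in P_Bb against 20.9 in P_BB and 28.8 in M_BB) and SINVm1_gene_14574 (5.49, 23.0 and 33.4) were higher in M_BB than in P_BB. SINVm1_gene_09065 (5.33, 19.8 and 23.4) was nearer to level. SINVm1_gene_00715 had 4.27, 17.7 and 15.3 normalized counts, with P_BB above M_BB. Over all 41 lower genes, M_BB was the higher *SB/SB* library in 25 and P_BB in 16. Among the 7897 genes tested M_BB was above P_BB in 4095 and below it in 3801.

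Lower genes with more reads had narrower intervals in the following cases. SINVm1_gene_05803 had 10.7 normalized counts in P_Bb against 37.6 in P_BB and 47.6 in M_BB, and its ratio of P_BB to P_Bb was 3.52 (1.71 to 7.96). SINVm1_gene_03814 was the only lower gene with a mean of at least 50, from 24.8 normalized counts in P_Bb against 61.2 in P_BB and 68.3 in M_BB. Its ratios to P_Bb were 2.47 for P_BB (1.53 to 4.26) and 2.75 for M_BB (1.73 to 4.65). Per length, the highest lower gene in P_Bb was SINVm1_gene_10353, named after its values were seen, with 43.8 TPM in P_Bb against 100.1 in P_BB and 98.4 in M_BB from a coding sequence of 192 bases, the shortest of the 64. The 28 lower genes outside the rule for named genes, this one included, had 3.39 to 23.5 normalized counts in P_Bb, 12.5 to 58.4 in P_BB and 9.88 to 61.1 in M_BB.

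At the limit itself the values of members and other genes ran into each other. SINVm1_gene_05699 (20.1 normalized counts in P_Bb against 9.53 in P_BB and 4.64 in M_BB) entered with a log2 gap of 1.005 to the nearer library. SINVm1_gene_10305 entered with 1.033. SINVm1_gene_02217 (28.8, 14.0 and 10.8) stayed out with 0.989, and SINVm1_gene_10296 (19.2, 9.39 and 8.08) with 0.959. A read more or less in P_BB would carry each of these genes across the limit.

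Below P_BB and M_BB, SINVm1_gene_08131 (17.1, 35.5 and 37.7 normalized counts) entered with a log2 gap of -1.014 and SINVm1_gene_10932 (14.9, 32.3 and 31.5) with -1.027. SINVm1_gene_10043 (11.7, 29.2 and 24.3) stayed out with -0.989 and SINVm1_gene_02022 (29.9, 63.7 and 60.2) with -0.988. Of the 64 gaps, 43 were under 1.5 in size on the log2 scale and 9 were 2 or more, 5 of them higher and 4 lower in P_Bb.

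**Figure D2:**
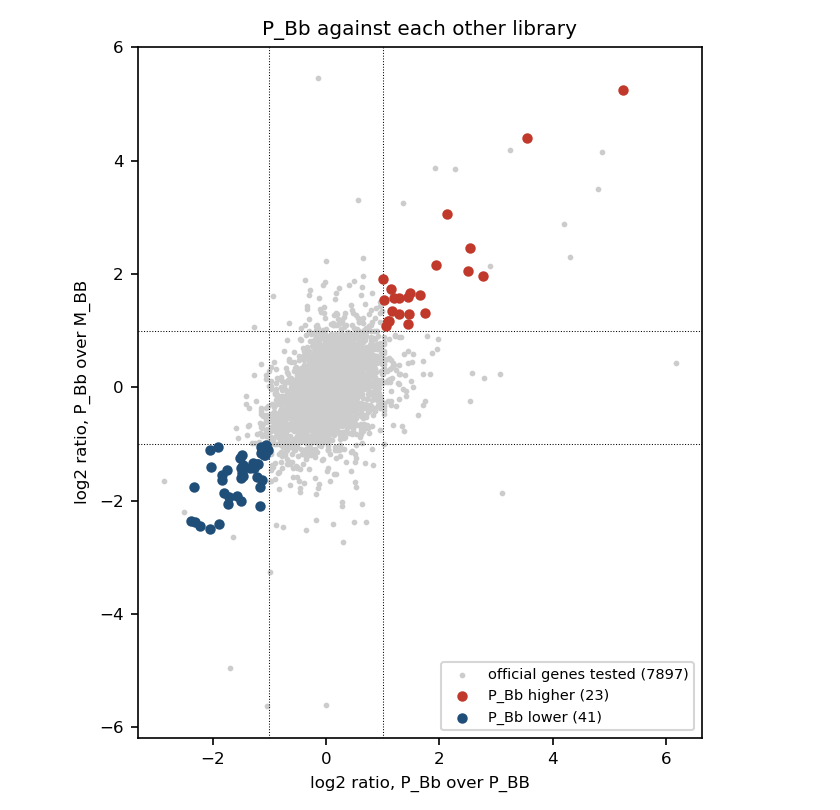
Log2 ratio of P_Bb over P_BB (x axis) against P_Bb over M_BB (y axis) for the 7897 official genes tested, on the log2(normalized count + 1) scale; dotted lines mark 1 and -1. The 23 higher and 41 lower genes sit in the corners past both lines, at the edge of the cloud, and grey points in those corners are genes left out by name or whose P_BB and M_BB values differed by 1 or more.

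Counting error set a limit that differed between the directions. In 19 of the 23 higher genes the intervals of both ratios lay above 1, and among all genes tested 4.77% had this. In 28 of the 41 lower genes both intervals lay below 1, against 2.85% of all genes tested. Nothing is read from these shares, since the rule used the same ratios. In 7 of the higher genes both intervals lay wholly above 2, and in 0 of the lower genes did both lie wholly past 2. The 7 were SINVm1_gene_00897, SINVm1_gene_00322, SINVm1_gene_00922, SINVm1_gene_05106, SINVm1_gene_00419, SINVm1_gene_10443 and SINVm1_gene_00903. Among all 7897 genes tested, both intervals lay wholly past 2 in 14, counting either direction. The deposited interval of the TPM value in P_Bb, which takes in the division of reads between entries, lay above those of both other libraries in 10 of the 23 higher genes and below both in 11 of the 41 lower genes, against 1.37% and 1.53% of all genes tested. SINVm1_gene_00897 was not among the 10. Nothing is read from the TPM shares either, since they rest on the same reads that chose the genes.

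**Figure D3:**
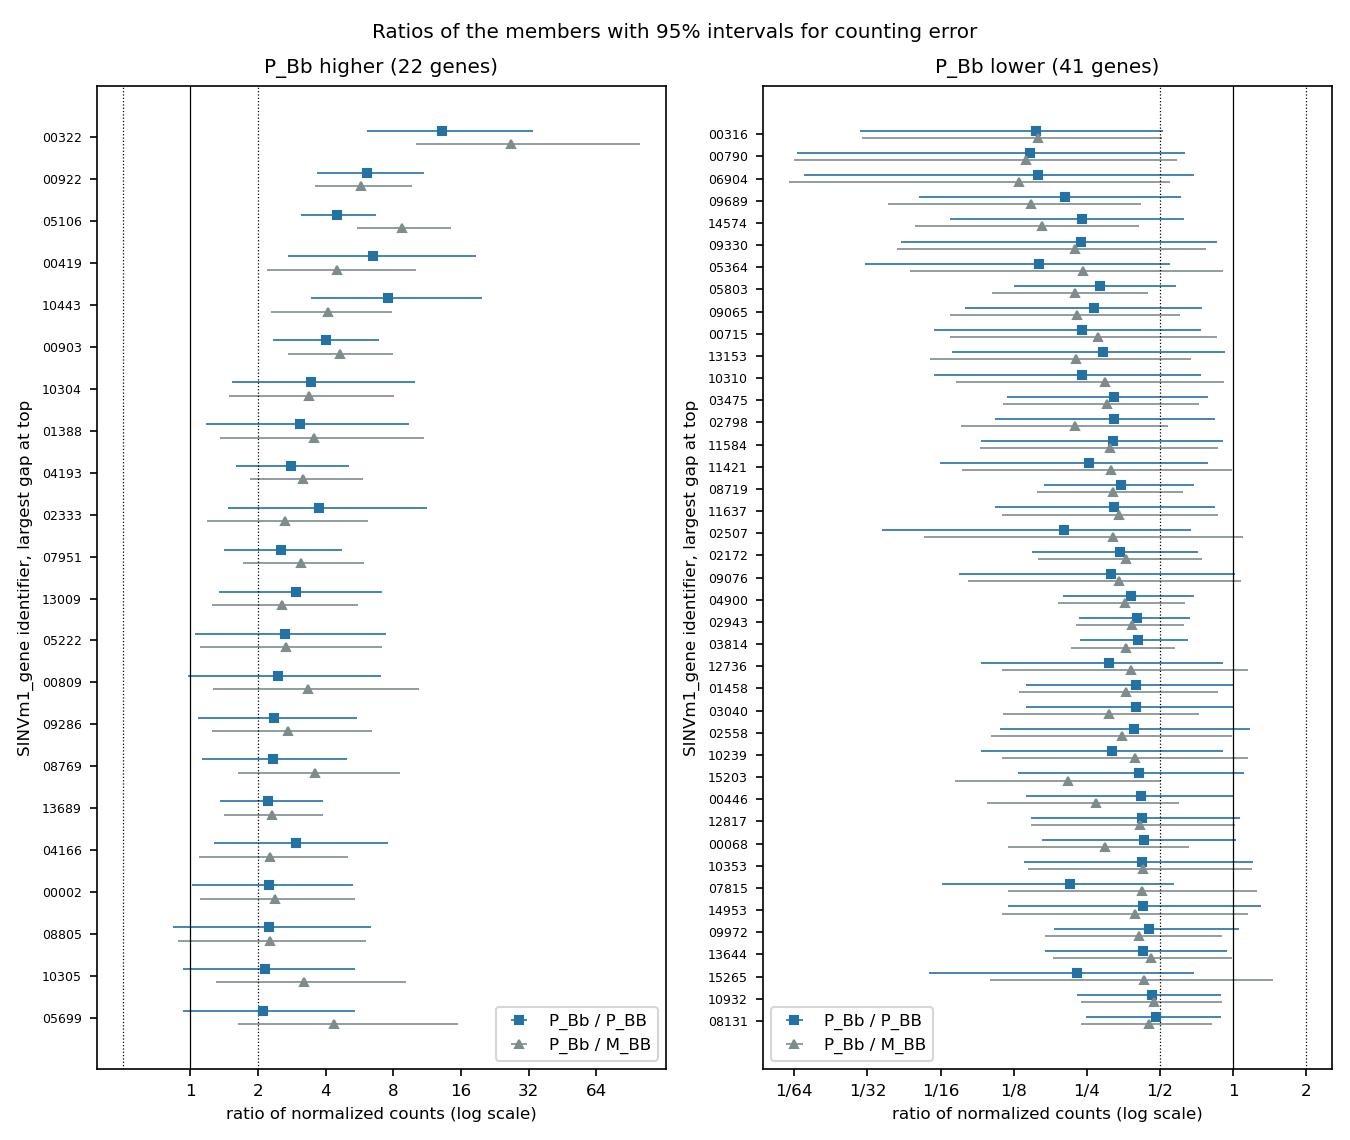
Ratio of the normalized count in P_Bb to that in P_BB (squares) and in M_BB (triangles), on a log axis, for 22 higher and 41 lower genes; bars are 95% Clopper-Pearson intervals for counting error, the solid line is 1 and dotted lines are 2 and 1/2. SINVm1_gene_00897 is left out because it is listed at 0 in P_BB and M_BB; both intervals exceed 2 for the 6 upper genes on the left, and for no gene on the right do both lie past 1/2.

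SINVm1_gene_00897 met the rule with the widest gap of all 64 genes but shared its reads with a gene that met it in the other direction. Its expected count was 34.65 in P_Bb and 0 in both *SB/SB* libraries. SINVm1_gene_00446, one of the 41 lower genes, had 7.35 in P_Bb against 18.00 in P_BB and 32.00 in M_BB. In each library both entries had the same posterior standard deviation (SD) of the count, 11.03, 5.56 and 9.58, and their counts added up to whole numbers, as happens when the same reads are divided between 2 entries. The coding lengths were 375 and 369 bases.

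The sum of both entries was 42 counts in P_Bb against 18 in P_BB and 32 in M_BB, or 44.8, 18.8 and 28.8 normalized counts, which did not meet the rule. P_Bb remained the highest, but the gap to M_BB was less than 2-fold. The posterior mean, which averages over the possible divisions of the reads, gave SINVm1_gene_00897 23.75 counts in P_Bb against 8.68 in P_BB and 13.15 in M_BB. On that scale it still met the rule, with a log2 gap of 1.04 in place of 5.25. The 0 of the expected count was thus a point estimate of an uncertain division, and no fold is given for it. By the same average SINVm1_gene_00446 had 18.25, 9.32 and 18.85 counts, or 19.5, 9.73 and 16.9 normalized counts. P_Bb was then the highest library for this gene, and it did not meet the rule in either direction.

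Of the 64 genes, 8 had such a partner, found by equal posterior SDs and a whole sum, or 12.5% against 3.67% of all genes tested. The share was 5.77% of the genes with M_BB apart and 6.12% of those with P_BB apart by the same limits. SINVm1_gene_00897 and SINVm1_gene_00446 count as 2 of the 8 though each is the partner of the other. The partners were named after their values were seen. Adding the partner kept 4 of the 8 genes set apart and ended it for the other 4. SINVm1_gene_05364 had 2.89 counts in P_Bb against 18.57 in P_BB and 14.25 in M_BB, and its partner SINVm1_gene_12222 had 70.11, 41.43 and 58.75. Their sums were 73, 60 and 73 counts, nearly level. SINVm1_gene_02507 and SINVm1_gene_02415 summed to 135, 157 and 195 counts, which did not meet the rule either. In these pairs the partner held most of the reads, so the sum mainly follows the partner. By posterior means both genes remained lower in P_Bb. SINVm1_gene_05364 had 3.25 (SD 1.28), 18.74 (SD 2.93) and 14.61 (SD 2.98) counts, a log2 gap of -1.66. SINVm1_gene_02507 had 3.25 (SD 0.51), 16.26 (SD 1.18) and 11.84 (SD 0.96), a gap of -1.38.

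In SINVm1_gene_00903 the sum kept the direction. It had 77.6 normalized counts in P_Bb against 19.4 in P_BB and 16.7 in M_BB, and with SINVm1_gene_10788 the sum was 91.7, 26.1 and 26.1. SINVm1_gene_00419 had 40.5, 6.26 and 8.99 normalized counts. Its partner SINVm1_gene_00426, below the filter, had an expected count of 20.01 in P_Bb and 0 in both others. Here the sum was 61.9, 6.26 and 8.99 normalized counts, a wider gap than that of SINVm1_gene_00419 alone. In both pairs the sum met the rule as well.

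SINVm1_gene_02172 shared reads with an odorant receptor model, SiOR90, and was the only one of the 64 whose partner was a receptor entry. It had 10.7 normalized counts in P_Bb against 31.3 in P_BB and 29.7 in M_BB, and the sum with SiOR90 was 12.8, 31.3 and 29.7. SiOR90 had an expected count of 1.97 in P_Bb and 0 in both others. Its posterior means were 4.41 (SD 3.09), 4.78 (SD 4.29) and 4.90 (SD 4.30) counts in the same order of libraries, too uncertain to give it a direction. SINVm1_gene_09972 and SINVm1_gene_00453 summed to 18.1, 37.6 and 41.3 normalized counts, and the sum remained lower in P_Bb.

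**Figure D4:**
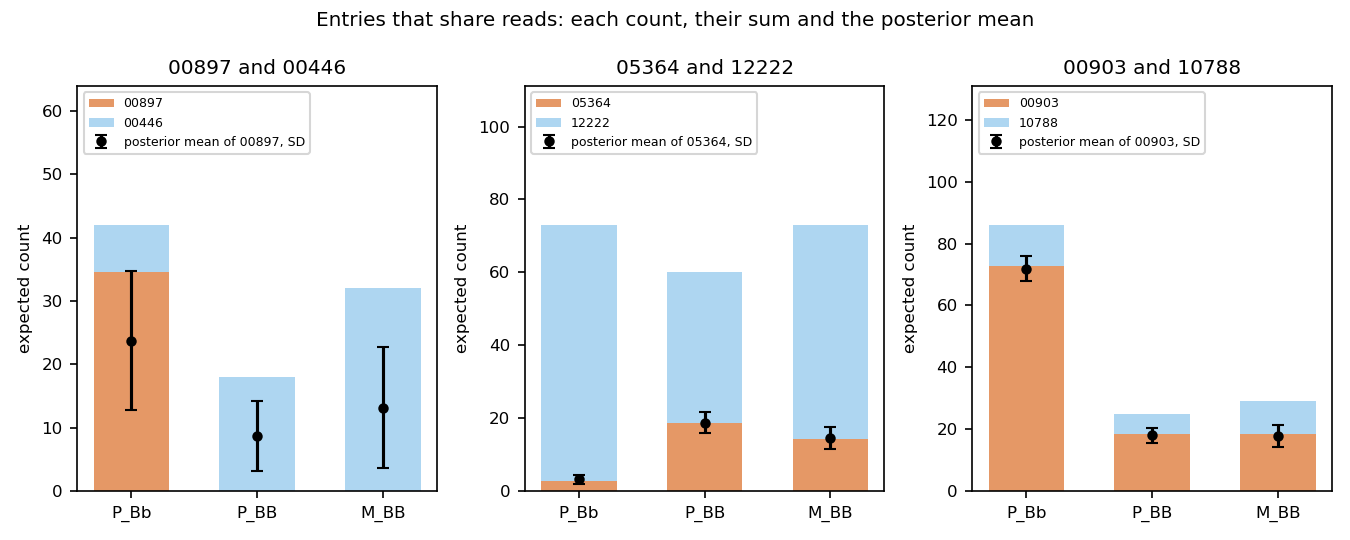
Expected counts (y axis) in the 3 libraries for 3 pairs of entries that share reads; stacked bars are the counts of each entry and their height is the sum, black points are the posterior mean of the gene in orange and error bars 1 posterior SD. The sum of SINVm1_gene_00897 and SINVm1_gene_00446 is 42, 18 and 32 counts, that of SINVm1_gene_05364 and SINVm1_gene_12222 is nearly level, and that of SINVm1_gene_00903 and SINVm1_gene_10788 is highest in P_Bb.

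The study listed 10 official genes as differing by genotype without placing them in the supergene. For 9 of the 10 its table gives no linkage group, so their position is open, and SINVm1_gene_09757 lies on another linkage group. The list came from the same amplified cDNA, so it is not independent of these libraries. Of its genes, 7 passed the filter, 6 of the 7 were highest in P_Bb and 2 were among the 64, SINVm1_gene_00322 and SINVm1_gene_13689. Over all genes tested 36.7% were highest in P_Bb and 0.810% were among the 64. The exception, SINVm1_gene_00196, which the study listed in the opposite direction, had 61.9 normalized counts in P_Bb against 81.4 in P_BB and 48.3 in M_BB. The median log2 ratio of the 7 to the mean of P_BB and M_BB was 2.87, against 0.02 over all genes tested. Another 3 of the 7 lay at least 2-fold above both libraries but were left outside the group because P_BB and M_BB differed by 2-fold or more.

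These 3 were SINVm1_gene_00321, with 39.5 normalized counts in P_Bb against 1.04 in P_BB and 7.19 in M_BB, SINVm1_gene_09757 with 39.5, 7.30 and 1.80, and SINVm1_gene_00935 with 57.3, 2.18 and 6.89. SINVm1_gene_00935 is predicted to be HARBI1-like, a nuclease of the family derived from Harbinger transposons. Their rounded *SB/SB* counts were between 1 and 8. Over all official genes tested, the condition on the *SB/SB* libraries removed 6 genes at least 2-fold higher and 4 at least 2-fold lower in P_Bb than in both. SINVm1_gene_00321 and SINVm1_gene_00322 have consecutive identifiers. The list also holds SINVm1_gene_00401, with 12.2, 2 and 0 expected counts, and SINVm1_gene_10405, with 6, 0 and 0, both under the filter, and SINVm1_gene_09325, listed at 0 in every library.

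Of 8 transposable elements with official identifiers in the study's table, which lists others outside the official genes, 5 passed the filter. Of these, 0 were among the 64, and 1 (SINVm1_gene_00935) lay at least 2-fold above both libraries. Transposable elements are mobile DNA whose transcripts can come from many copies. The median log2 ratio of these 5 to the mean of P_BB and M_BB was 0.58. It pools elements that the study listed for genotype, in both directions, with elements listed for social form. Of 9 genes of chemical metabolism, such as cytochrome P450 enzymes and esterases that process small molecules, 7 passed the filter and 0 were among the 64. With 0.810% of all genes tested among the 64, a count of 0 in lists of this size is no result about them. Of the 7 genes, P_Bb was above P_BB in 6 and above M_BB in 2, with a median log2 ratio of 0.19 to P_BB and -0.55 to M_BB. Over all 7897 genes tested the counts were 4391 and 4091, and the medians 0.03 and 0.01. The study had listed all 7 for social form, in both directions. The 2 above M_BB, SINVm1_gene_10049 and SINVm1_gene_00238, were those listed as higher in polygyne workers. Its table also puts SINVm1_gene_05175 and SINVm1_gene_05176, as higher in *SB/Sb* workers, under chemical metabolism, and both are among the identifiers left out by the rule.

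The 64 genes were at low levels among official genes. Their median mean normalized count was 15.0, against 133 over all genes tested, and 47 of the 64 had a mean under 20. The rule set apart 5.73% of the 820 genes with a mean from 10 to 20, 1.18% of the 1267 from 20 to 50, 0.156% of the 1282 from 50 to 100 and 0 of the 4528 from 100 on. In the last range 1 of the identifiers left out by the rule met its limits, and in the range from 50 to 100 there were 3. The share of genes set apart thus fell with each range of the mean.

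The same sorting with another library apart was run as a yardstick. M_BB was apart in 104 official genes, or 1.32%, with 62 higher and 42 lower. P_BB, which follows neither genotype nor social form on its own, was apart in 49, or 0.620%, with 7 higher and 42 lower. From a mean of 100 on, M_BB was apart in 14 genes and P_BB in 2. Of the genes with P_BB apart 59.2% had a mean under 20, against 73.4% of the 64 genes and 42.3% of those with M_BB apart. The 64 genes lack the 5 left-out identifiers that met the limits, of which 1 had a mean under 20. No gene was removed from the other groups, so the share of the 64 is raised by the rule. The median mean normalized count was 15.1 with P_BB apart and 21.4 with M_BB apart. In number and in the share under a mean of 20 the differences between these groups were not tested.

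**Figure D5:**
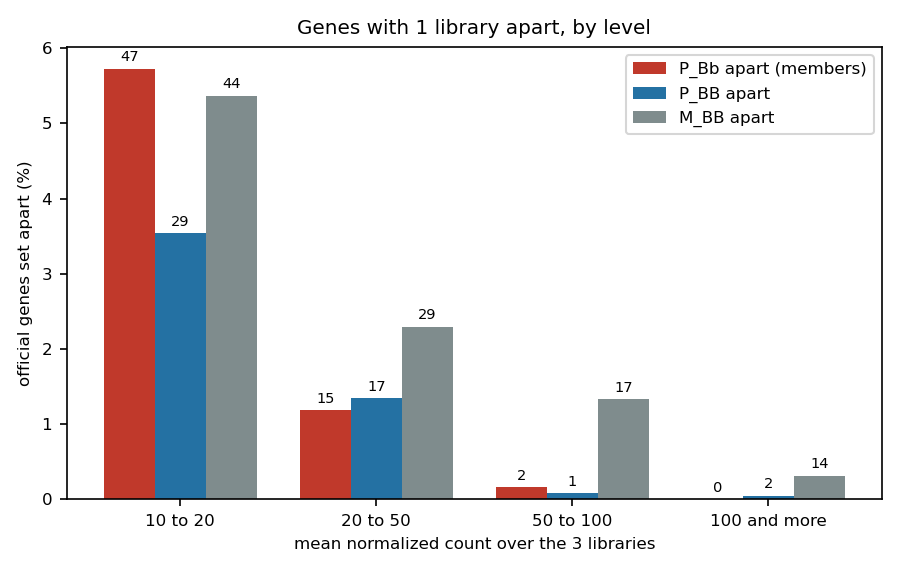
Share of official genes (%, y axis) with P_Bb, P_BB or M_BB apart by the same limits, in 4 ranges of the mean normalized count (x axis), with the number of genes above each bar. The identifiers left out by the rule are not in the P_Bb bars, which fall from 5.73% in the lowest range to 0 in the highest, where M_BB has 14 genes and P_BB has 2.

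The genes were also short. The median coding length was 654 bases in the 23 higher genes and 894 in the 41 lower genes, against 1368 over all genes tested, 1016 with M_BB apart and 906 with P_BB apart. Lengths were multiples of 3 for 98.9% of the genes tested, so they hold no untranslated regions. Counts grow with length, so short genes are also less counted, and the parts of level and length were not separated. A posterior SD of at least 1 count in any library was found for 10 of the 64 genes (15.6%), against 9.41% of all genes tested, 18.3% with M_BB apart and 14.3% with P_BB apart.

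By identifier, 12 of the 64 genes had a number under 1000, 7 of them higher and 5 lower in P_Bb. This was 18.8% of the group, against 4.08% of all genes tested, 9.62% of those with M_BB apart and 8.16% of those with P_BB apart. They include SINVm1_gene_00897, SINVm1_gene_00322, SINVm1_gene_00922, SINVm1_gene_00419 and SINVm1_gene_00903 among the higher genes with wide gaps, and SINVm1_gene_00446, which shares the reads of SINVm1_gene_00897. The block was chosen after the values were seen, and what the order of the numbers follows is not given in the sources used here. Among the genes tested, members made up 3.73% of the numbers under 1000, 2.10% from 10000 to 10999 (7 of 333), 1.12% from 9000 to 9999 (6 of 536) and under 1% of each other block of 1000 numbers.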

How the data were processed

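Antennal RNA was measured in 3 pooled libraries, grouped by the labels' genotype and social form. The authors mapped read pairs to transcript sequences with Bowtie2 and counted them with RSEM, per the labels and methods; the methods name Bowtie 2.2.6 and RSEM 1.3.0 for the analysis of the separate samples and do not say whether they apply to these pooled libraries. The deposited expected count is RSEM's estimated count per entry, which need not be whole and was deposited without normalization. The authors' RSEM run also gave the deposited TPM values, posterior means, posterior SDs and TPM intervals from the same reads; the level of the TPM intervals is not given in the sources used here. RSEM divides reads that match several entries, which can move a count between them. A deposited table of the study's own comparison patterns and the merged transcript models, whose identifiers differ, were not used.

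Expected counts were divided by size factors of 0.938 (P_Bb), 0.958 (P_BB) and 1.11 (M_BB), the 75th percentiles of 91, 93 and 108 counts scaled to a geometric mean of 1. Log2 ratios used a pseudocount of 1, which understates the change of low genes. Plain ratios used none, with 95% Clopper-Pearson intervals of rounded counts (SciPy 1.17.1). At 3 counts or fewer a library was called low. Pairs that share reads were found by posterior SDs equal within 0.01 in every library and sums within 0.02 of whole counts; larger sets of entries were not searched. The study's test across replicates could not be run on 1 library per class, and no p-values were made. The code was tested on simulated data.

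The genes named were the 10 widest gaps in each direction, means of at least 50, genes in the study's table, examples at 3 counts or fewer, the 2 genes on each side of each limit, and consecutive identifiers; genes of the study's list that stand beside a member were added. The 64 genes, the lists and the tests were chosen with earlier results of these data known. Alternatives were TMM (edgeR 4.0.16) and median-of-ratios (DESeq2 1.42.0) scaling, library totals, the 75th percentile over official genes, TPM, other pseudocounts, filters and thresholds, and limits on counting error and posterior SD. Posterior mean counts, TPM with the count filter and sums over partners were added after seeing the data.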

Additional observations from a re-analysis of the deposited data

How the results depend on the processing

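The 4 other scalings (TMM, median-of-ratios, library totals and the 75th percentile over official genes) gave 21 to 23 higher and 41 to 48 lower genes, and 62 of the 64 genes were set apart under all 4. The exceptions were SINVm1_gene_05699 and SINVm1_gene_10305, which entered near the limit. The scalings moved the median log2 ratio of all genes tested by less than 0.1. The limits on low values moved the counts most. Without a filter, 436 genes were higher and 257 lower in P_Bb, 585 had M_BB apart and 681 had P_BB apart. A mean of at least 20 left 8 higher and 9 lower, with 60 for M_BB and 20 for P_BB, and a mean of at least 100 left 0 and 0, with 14 and 2. TPM with a mean of at least 1 gave 136 higher and 169 lower, with 286 and 278; with the count filter kept, 20 and 29 of the 64 genes remained, and P_BB had 33. A pseudocount of 5 gave 18 higher and 23 lower, with 68 and 19. At 1.5-fold for both limits there were 104 higher and 151 lower, with 383 and 208, and at 4-fold 5 and 4, with 14 and 5. Requiring both intervals to exclude 1 left 19 and 28, a posterior SD under 1 left 20 and 34, and dropping the condition on the *SB/SB* libraries gave 29 and 45. Posterior mean counts gave 23 and 40, with SINVm1_gene_05699 and SINVm1_gene_00446 lost, and sums over partners gave 23 and 39, with SINVm1_gene_00897, SINVm1_gene_00446, SINVm1_gene_05364 and SINVm1_gene_02507 lost. No gene set apart in 1 direction was set apart in the other under any of the 18 alternatives run (0 crossed). Other filters, fold limits and pseudocounts, and limits on intervals and posterior SD, use the same normalized counts and could not cross a gene. Without meeting the rule, however, the lower genes SINVm1_gene_00446 and SINVm1_gene_05364 had P_Bb highest in the sums over partners. The sums were 44.8 normalized counts in P_Bb against 18.8 in P_BB and 28.8 in M_BB for the first, and 77.8, 62.6 and 65.6 for the second. SINVm1_gene_00446 also had P_Bb highest by posterior means, whereas SINVm1_gene_05364 remained lower in P_Bb, with a log2 gap of -1.66. Of the log2 ratios of 26 named genes, 0 changed sign under the 4 scalings, TPM or pseudocounts of 0.5 and 5. A pseudocount cannot change the sign, and scaling shifts this small could not reverse gaps of at least 1. Those settings therefore say nothing about how stable the genes are. These ratios were not computed with posterior means or sums over partners. The ratio of SINVm1_gene_06904 shrank to -0.58 with TPM, where a pseudocount of 1 exceeds its level in every library. No paired analysis was possible because a class held 1 library only, and for the same reason no replicate could be left out. Alternatives that need positions of the official genes were not run, since the deposited transcript models do not carry their identifiers. Depth limits both directions: 33 of the 41 lower genes had fewer than 10 counts in P_Bb, and of the 23 higher genes 14 had fewer than 10 in P_BB and 11 in M_BB.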
